A study of Mus musculus with 20 samples.

Results

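Histamine and serotonin are biogenic amines, small signalling molecules made from amino acids. The 9 genes described here encode 2 enzymes that make these amines (Hdc and Tph1), 5 enzymes that degrade amines (Aoc1, Hnmt, Maoa, Maob and Aoc3) and 2 histamine receptors (Hrh1 and Hrh2). They were taken by symbol from a table of 35841 genes, all 9 were found, and all 9 were above 0 in each of the 20 libraries. Of these, 6 reached 1 FPKM (fragments counted on a gene, scaled to its length and to the size of the library) in at least 5 libraries, the level asked of the 13987 genes tested, and Hdc, Hrh1 and Hrh2 did not. Aoc1 and Tph1 passed through the stages at which they were high, with 8 libraries each at 1 FPKM or more. The genes were chosen by their role in amine metabolism and with their FPKM at the 4 stages in these libraries in view, so the stage values of the 9 genes are given as a description and without a test.

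The tissue was inguinal subcutaneous fat of 8-week-old female C57BL/6 mice with no treatment named, staged by vaginal smear at proestrus, estrus, metestrus or diestrus. There were 5 mice per stage and 1 library of polyadenylated RNA per mouse. The RNA of proestrus-2 came from another stored portion of the same animal's fat. FPKM summed to between 373659 and 452647 in a library, and 23272 to 27323 genes were above 0. Adipocyte genes were high throughout, with 7 markers summing to 3211 to 6000 FPKM, and 8 luminal mammary epithelial markers summed to 212.9 to 675.8 FPKM. In metestrus-3 the 5 skeletal muscle markers summed to 5757 FPKM where the median library had 15.7 FPKM. The 8 lymphocyte markers had their lowest sum in proestrus-2 (2.29 FPKM) and their highest in estrus-3 (364.2 FPKM). In whole tissue of this kind, fewer cells of a type and less RNA per cell cannot be told apart.

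As background, histidine decarboxylase (Hdc) converts histidine to histamine, which mast cells and basophils store in granules. Tryptophan hydroxylase 1 (Tph1) carries out the rate-limiting step of serotonin synthesis outside the brain. Histamine is removed by oxidation outside cells by diamine oxidase (Aoc1), which also oxidises putrescine, or by methylation inside cells by Hnmt, after which monoamine oxidases act on the product. Monoamine oxidase A (Maoa) is the main enzyme of serotonin breakdown and monoamine oxidase B (Maob) acts on phenylethylamine and methylhistamine, both in the outer mitochondrial membrane. Aoc3, a copper amine oxidase of the cell surface also known as vascular adhesion protein, is abundant on adipocytes and vessel walls.

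Promoter sequences are shown for Aoc1 and Tph1, the 2 genes with the widest differences between stages. They come from RefSeq on GRCm38.p6 and run from 250 bases before to 50 bases after an annotated start, 5′ to 3′ on the strand of the gene. Capitals mark GGTCA or its reverse complement TGACC, 1 arm of the estrogen response element. The windows are chr6:48895005-48895304 and chr6:48904736-48905035 on the plus strand for Aoc1, and chr7:46667328-46667627 and chr7:46672488-46672787 on the minus strand for Tph1. Both Aoc1 windows lie within the gene as annotated in GENCODE M21. Its 5′ end there, at 48872896, is in neither window and was not searched.
Aoc1, upstream start of the 2: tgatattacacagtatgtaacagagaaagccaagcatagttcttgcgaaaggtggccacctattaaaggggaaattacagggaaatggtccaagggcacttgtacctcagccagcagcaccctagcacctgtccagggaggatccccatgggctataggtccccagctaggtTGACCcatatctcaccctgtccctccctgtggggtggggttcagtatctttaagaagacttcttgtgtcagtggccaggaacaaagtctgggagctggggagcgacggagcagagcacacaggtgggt
Aoc1, downstream start of the 2: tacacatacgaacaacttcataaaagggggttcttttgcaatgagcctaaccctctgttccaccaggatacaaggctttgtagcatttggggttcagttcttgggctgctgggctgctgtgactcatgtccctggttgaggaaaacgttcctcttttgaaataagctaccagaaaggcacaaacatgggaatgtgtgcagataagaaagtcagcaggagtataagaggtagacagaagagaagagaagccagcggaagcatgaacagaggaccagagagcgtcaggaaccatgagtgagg
Tph1, start within the gene: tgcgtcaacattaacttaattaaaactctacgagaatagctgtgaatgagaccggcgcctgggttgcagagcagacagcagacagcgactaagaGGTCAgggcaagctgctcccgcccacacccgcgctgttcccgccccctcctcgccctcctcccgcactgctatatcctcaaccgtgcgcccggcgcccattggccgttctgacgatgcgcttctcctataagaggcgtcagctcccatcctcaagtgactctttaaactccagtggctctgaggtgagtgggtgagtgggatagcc
Tph1, start at the 5′ end of the gene: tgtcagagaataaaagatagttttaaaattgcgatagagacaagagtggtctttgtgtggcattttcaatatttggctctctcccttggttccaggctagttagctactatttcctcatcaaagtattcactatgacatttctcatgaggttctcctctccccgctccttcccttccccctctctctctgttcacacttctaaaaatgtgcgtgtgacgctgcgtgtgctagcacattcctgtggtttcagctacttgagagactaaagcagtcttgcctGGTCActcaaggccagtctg
Both strands of the RefSeq promoters of the members were searched, 13 windows of 7 genes, with Aoc3 and Maob not covered. The arm GGTCA was in 4 of the 13 (1 of Aoc1, 1 of Hrh1 and 2 of Tph1), against 40.5% of the 32851 promoters of this length. The full palindrome, GGTCA and TGACC with 3 bases between them, contains the arm. It was in 0 of the 13 and in 0.0700% of all promoters. The palindrome of glucocorticoid and progesterone receptors, GNACA and TGTNC with 3 bases between them, was in 0 of the 13 and in 0.475% of all promoters. A match describes the letters in a window and says nothing of binding. Whether these letters bear on the levels at any stage was not tested.

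The mean levels of the 9 genes over the 20 libraries, in FPKM and so per length, spanned 0.280 to 150.8 FPKM. Aoc3 came first at 150.8 ± 53.4 FPKM (SD, n = 20), above 98.4% of the genes tested. Maob followed at 26.0 ± 3.16 FPKM, Hnmt at 16.9 ± 4.68 FPKM and Maoa at 10.5 ± 1.89 FPKM. Aoc3 lay above Maob in 20 of 20 libraries with ranges that did not overlap, Maob above Hnmt in 20 and Hnmt above Maoa in 19. The means of the enzymes of amine breakdown lay above those of the enzymes of synthesis. For Aoc1 against Tph1 this did not hold in every library. Aoc1 at 2.11 ± 3.0 FPKM and Tph1 at 1.32 ± 1.14 FPKM had no settled order, with Aoc1 the higher in 9 of 20 libraries. Hrh2 at 0.456 ± 0.163 FPKM, Hdc at 0.404 ± 0.213 FPKM and Hrh1 at 0.280 ± 0.201 FPKM came last, and neighbours in this order changed place in 9 and 7 of 20 libraries.

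**Figure D1:**
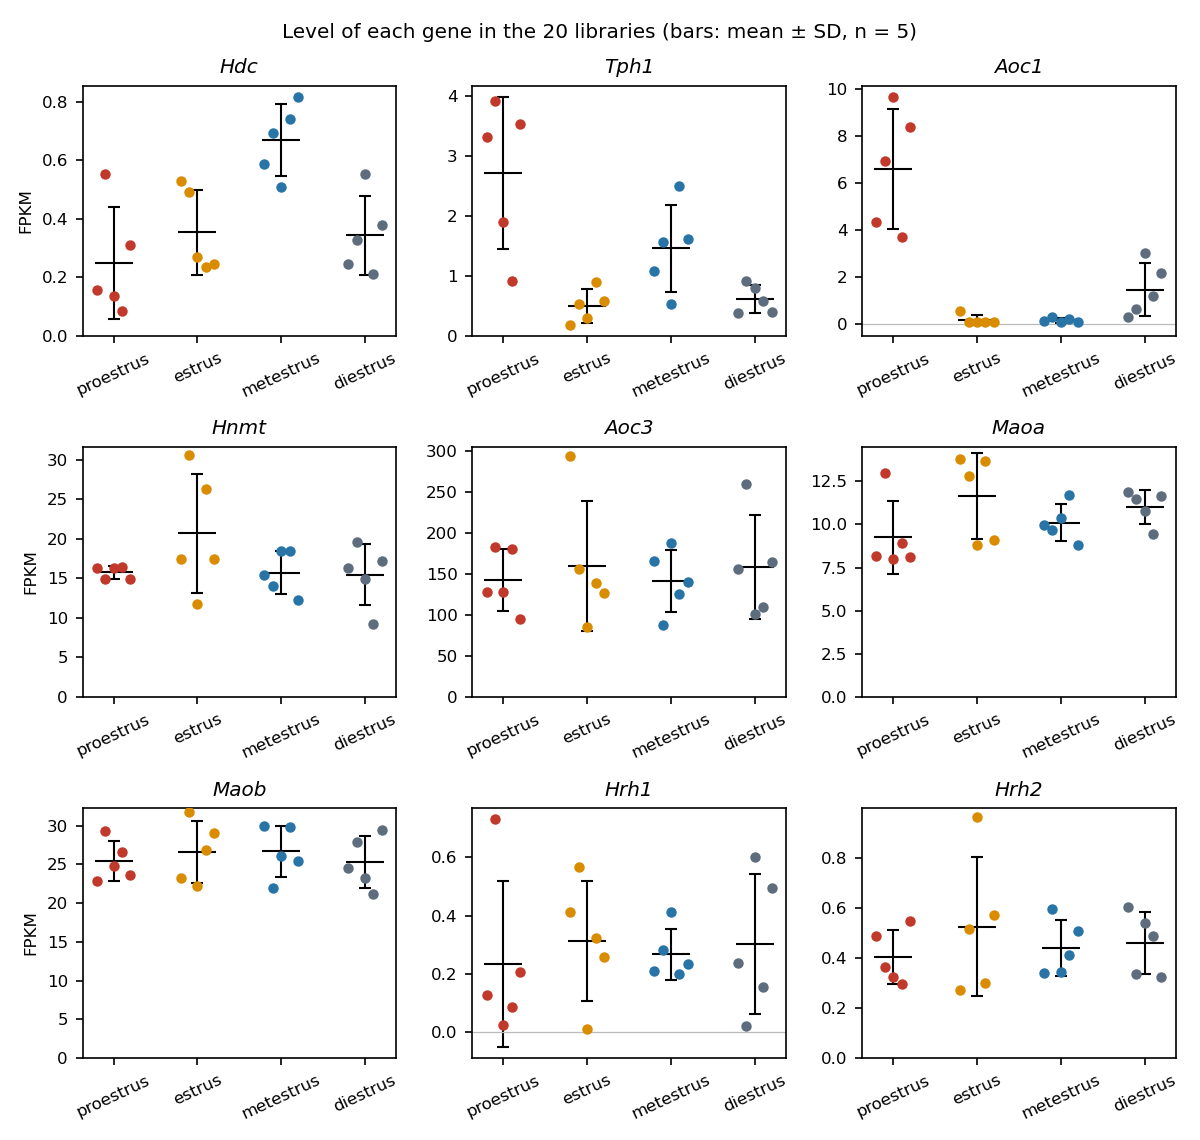
FPKM of the 9 genes (vertical axes, linear, a separate scale for each gene) at the 4 stages (horizontal axis), with a point for each library and bars for the mean ± SD of 5 mice. Aoc1 stood at 3.70 to 9.65 FPKM at proestrus and under 0.6 FPKM at estrus and metestrus, while Maob stayed between 21.1 and 31.7 FPKM at all stages.

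Among the enzymes of synthesis, Hdc (chromosome 2, 126593667 to 126619299, minus strand, GRCm38) was low at every stage. At proestrus its levels in replicates 1 to 5 were 0.159, 0.555, 0.136, 0.0837 and 0.312 FPKM, and at estrus they were 0.529, 0.492, 0.270, 0.235 and 0.245 FPKM. At metestrus they were 0.587, 0.692, 0.509, 0.743 and 0.816 FPKM, and at diestrus 0.246, 0.327, 0.552, 0.213 and 0.379 FPKM. The metestrus libraries were the high ones, and 1 library of each other stage reached into their range, so that no pair of stages was free of overlap. The mean was 0.669 ± 0.122 FPKM at metestrus against 0.249 ± 0.191 FPKM at proestrus (SD, n = 5 each), a ratio of 2.69. On the log2(FPKM + 1) scale, which understates changes at low FPKM, metestrus minus proestrus was 0.43 (SE 0.10, from the fit without a filter on low values).

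Tph1 (chromosome 7, 46644641 to 46672537, minus strand) was high at proestrus, low at estrus and intermediate at metestrus. Its levels at proestrus were 3.32, 3.93, 1.91, 0.912 and 3.53 FPKM, and at estrus 0.188, 0.529, 0.300, 0.902 and 0.582 FPKM. At metestrus they were 1.09, 1.56, 0.527, 2.5 and 1.61 FPKM, and at diestrus 0.381, 0.908, 0.803, 0.582 and 0.398 FPKM. The estrus and diestrus libraries all lay below the 5 proestrus libraries, but only just, since estrus-4 at 0.902 FPKM and diestrus-2 at 0.908 FPKM stood beside proestrus-4 at 0.912 FPKM. The metestrus libraries overlapped with those of each other stage, but with estrus and diestrus only through metestrus-3 at 0.527 FPKM. The mean was 0.50 ± 0.277 FPKM at estrus against 2.72 ± 1.27 FPKM at proestrus (SD, n = 5 each), 5.43-fold higher at proestrus. The difference was -1.25 (SE 0.24) for estrus minus proestrus on the log2(FPKM + 1) scale. It was -1.13 for diestrus minus proestrus, 0.68 for metestrus minus estrus and -0.57 for diestrus minus metestrus, with the same SE.

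Among the enzymes of breakdown, Aoc1 (chromosome 6, 48872896 to 48909188, plus strand) had the widest stage pattern of the 9 genes. At proestrus its levels were 4.36, 6.95, 9.65, 3.70 and 8.37 FPKM. They were 0.569, 0.107, 0.099, 0.109 and 0.0931 FPKM at estrus and 0.148, 0.305, 0.0844, 0.225 and 0.0817 FPKM at metestrus. At diestrus they were 0.319, 0.661, 3.04, 1.19 and 2.18 FPKM. Proestrus lay above each other stage without overlap, and diestrus lay above metestrus without overlap, by 0.319 FPKM in diestrus-1 against 0.305 FPKM in metestrus-2. The stages were ordered proestrus, diestrus and then estrus and metestrus together. Diestrus overlapped with estrus through estrus-1, and estrus overlapped with metestrus. Aoc1 averaged 0.195 ± 0.209 FPKM at estrus against 6.61 ± 2.55 FPKM at proestrus, and 1.48 ± 1.12 FPKM at diestrus against 0.169 ± 0.0959 FPKM at metestrus (SD, n = 5 each). The means were 33.8-fold higher at proestrus than at estrus, 39.2-fold higher than at metestrus and 4.47-fold higher than at diestrus. The mean at diestrus was 8.77-fold that at metestrus. On the log2(FPKM + 1) scale estrus minus proestrus was -2.62, metestrus minus proestrus -2.64, diestrus minus proestrus -1.67 and diestrus minus metestrus 0.97 (SE 0.26 each). With a pseudocount of 0.1 in place of 1, estrus minus proestrus was -4.62.

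Hnmt (chromosome 2, 24002910 to 24049394, minus strand), the other histamine-degrading enzyme, did not share this pattern. It averaged 15.8 ± 0.779 FPKM at proestrus, 20.7 ± 7.57 FPKM at estrus, 15.7 ± 2.74 FPKM at metestrus and 15.4 ± 3.85 FPKM at diestrus (SD, n = 5). Its lowest level was 9.27 FPKM in diestrus-4 and its highest 30.5 FPKM in estrus-2, and every pair of stages overlapped. The ratio of Aoc1 to Hnmt within a library therefore followed Aoc1. Proestrus libraries averaged a ratio of 0.423 ± 0.169 and estrus libraries 0.0108 ± 0.0124. Metestrus libraries averaged 0.0109 ± 0.00666 and diestrus libraries 0.103 ± 0.0763.

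The monoamine oxidases varied least. Maoa averaged 9.25 ± 2.13 FPKM at proestrus, 11.7 ± 2.49 FPKM at estrus, 10.1 ± 1.06 FPKM at metestrus and 11.0 ± 0.986 FPKM at diestrus (SD, n = 5), with proestrus-2 at 13.0 FPKM and the other proestrus libraries at 8.02 to 8.91 FPKM. Maob averaged 25.4 ± 2.60, 26.6 ± 3.99, 26.7 ± 3.34 and 25.3 ± 3.39 FPKM at the same stages in turn, with a coefficient of variation of 12.2% over the 20 libraries. Every pair of stages overlapped for both. These 2 genes lie next to each other on chromosome X in opposite directions (Maoa at 16619698 to 16687818 on the plus strand and Maob at 16709282 to 16817366 on the minus strand, GRCm38). Maob exceeded Maoa in 20 of 20 libraries, by 2.53 ± 0.408-fold (SD, n = 20; range 1.68 to 3.19).

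Aoc3 varied widely between mice of the same stage. It averaged 143 ± 38.0 FPKM at proestrus, 160 ± 79.3 FPKM at estrus, 142 ± 38.4 FPKM at metestrus and 158 ± 63.2 FPKM at diestrus (SD, n = 5). Within estrus alone it ran between 85.6 FPKM in estrus-3 and 294.4 FPKM in estrus-1, the lowest and the highest of the 20 libraries. The gene lies on chromosome 11 at 101330605 to 101341938 and overlaps Gm28156 on the other strand, so reads of the 2 may not be told apart.

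The receptors were at low levels with no stage apart from another. Hrh1, which couples to phospholipase C, averaged 0.235 ± 0.284 FPKM at proestrus, 0.313 ± 0.205 FPKM at estrus, 0.268 ± 0.0866 FPKM at metestrus and 0.302 ± 0.240 FPKM at diestrus (SD, n = 5). Its proestrus mean rested on proestrus-2 at 0.729 FPKM, with the other 4 libraries at 0.0249 to 0.207 FPKM. Hrh2, which raises cyclic AMP, averaged 0.403 ± 0.108, 0.524 ± 0.277, 0.439 ± 0.111 and 0.457 ± 0.124 FPKM at the 4 stages in turn. Hrh1 lies on chromosome 6 at 114397936 to 114483296 and Hrh2 on chromosome 13 at 54192129 to 54236180, both on the plus strand, and Hrh2 overlaps Gm16578 on the other strand.

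Counted over the 9 genes, 2 had estrus libraries below all proestrus libraries, where 0.429% of the 13987 genes tested did. Diestrus lay below proestrus without overlap in 2 (0.357% of genes tested), metestrus lay below proestrus in 1 (1.08%) and diestrus lay above metestrus in 1 (1.48%). In metestrus against estrus and diestrus against estrus, 0 of 9 were free of overlap (1.67% and 1.43% of genes tested in either direction). Since the genes were chosen with these values known, nothing is read from the counts. The 6 comparisons share libraries and are not independent.

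**Figure D2:**
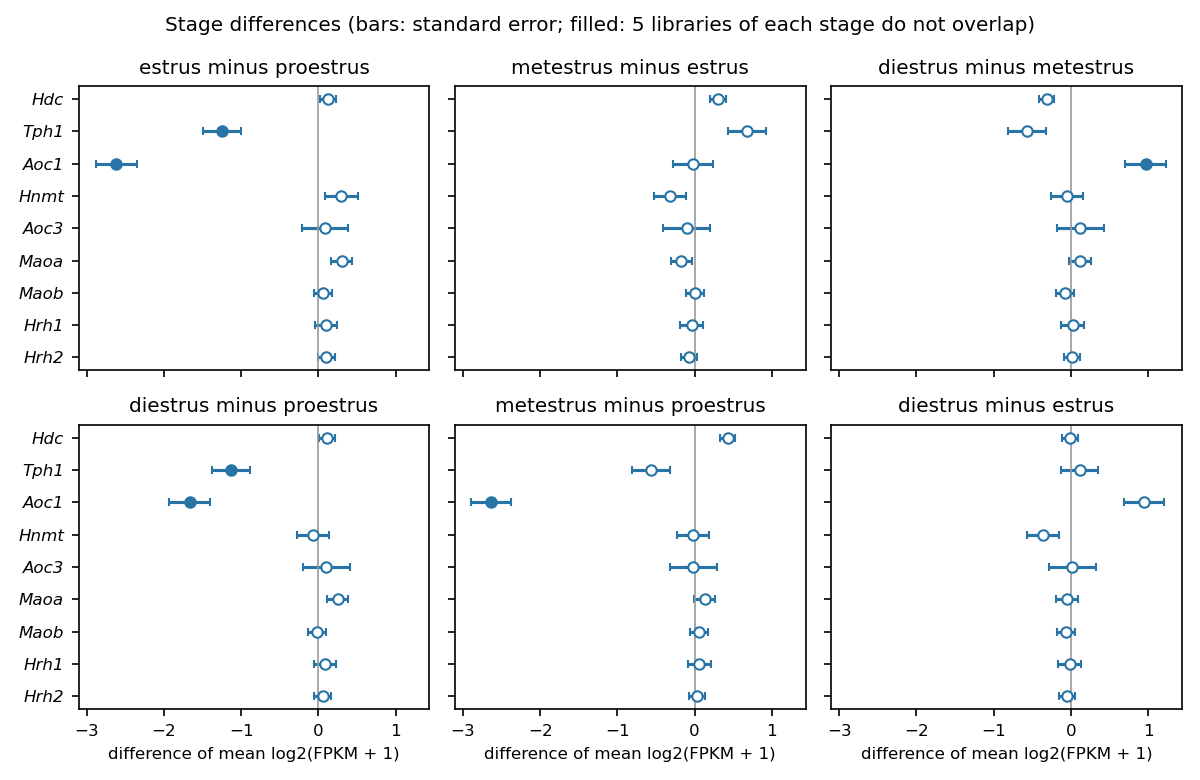
Difference of the mean log2(FPKM + 1) (horizontal axes) of the 9 genes in the 6 pairs of stages, later minus earlier, with bars for the standard error of the limma fit and filled points where the 5 libraries of each stage do not overlap. Filled points are those of Aoc1 in 4 pairs and Tph1 in 2, and values of Hdc, Hrh1 and Hrh2 come from the fit without a filter on low values.

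Variation between mice of the same stage was tested. The genes and the marker lists were chosen with earlier results of these data known, so the p-values of the slopes are not independent evidence. Scores of 5 cell types, each the mean log2(FPKM + 1) of the markers of a type, were added 1 at a time to the model with stage, and slopes were adjusted by Benjamini-Hochberg over the 13987 genes in limma. Of the 6 members tested, 4 rose with the adipocyte score, where 9.69% of all genes did. Aoc3 had the steepest slope (1.39, SE 0.18, limma adjusted p = 2.66e-05), followed by Hnmt (0.70, adjusted p = 0.0089), Maoa (0.41, adjusted p = 0.0285) and Maob (0.38, adjusted p = 0.0123). The same 4 genes fell with the lymphocyte score, where 9.10% of all genes did. The limma slope was -0.17 for Aoc3 (adjusted p = 0.00668), -0.11 for Hnmt (0.0228), -0.09 for Maoa (0.000157) and -0.05 for Maob (0.0487). The lymphocyte score left a gap, with 8 libraries at 0.337 to 2.13 and 12 at 3.14 to 5.27. Without estrus-3 the calls were 2 for the adipocyte score (Aoc3 and Maob) and 2 for the lymphocyte score (Aoc3 and Maoa). The call of Maob on the lymphocyte score ended in 16 of the 20 fits that left out a library (limma adjusted p up to 0.137), and that of Maoa on the adipocyte score ended without estrus-1, estrus-3 or diestrus-4 (up to 0.127). At an unadjusted p under 0.05 in either direction, limma had 4 of the 6 members on each of these 2 scores. Of all genes, 46.7% were on the adipocyte score and 38.5% on the lymphocyte score, so both scores track many genes. The scores were fitted separately and share libraries, so the slopes on them are not independent of each other.

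Neither Aoc1 nor Tph1 passed the test on any of the 5 scores. Both lay under 1 FPKM in 12 of the 20 libraries, where the scale of log2(FPKM + 1) leaves little room for a slope, so nothing is read from these misses. Tph1 had a limma slope of 0.32 (SE 0.14) on the mast cell score (unadjusted p = 0.0332, adjusted p = 0.457) and of 0.52 (SE 0.27) on the luminal score (adjusted p = 0.99975). Of the 6 genes 0 were called on the mast cell, luminal or macrophage score, where limma called 1.82%, 0.586% and 2.40% of all genes. At an unadjusted p under 0.05 these scores had 1, 0 and 0 of the 6, where 9.27%, 4.71% and 10.9% of all genes were. In the fit without a filter, Hdc had a slope of 0.19 (SE 0.04) on the mast cell score (unadjusted p = 0.000536, limma adjusted p = 0.0704). Its slope on the macrophage score was alike (0.21, SE 0.05, limma adjusted p = 0.0978), and neither passed. Hrh1 had slopes of similar size, 0.20 (SE 0.08) on the mast cell score and 0.23 (SE 0.09) on the macrophage score. These did not pass either (limma adjusted p = 0.456 and 0.340). On the lymphocyte score the slope of Hrh1 was -0.06 (limma adjusted p = 0.143), and 0.0369 was its adjusted p without diestrus-3. Leaving out a library gave limma adjusted p-values for Hdc on the mast cell score of 0.0147 (without estrus-1) to 0.577 (without proestrus-2). In the fit of all 20 libraries without a filter, of 35841 genes, Hrh2 rose with the lymphocyte score (0.06, limma adjusted p = 0.0152; 9.96% of genes rose) and fell with the adipocyte score (-0.40, adjusted p = 0.00255; 14.9% of genes fell). The lymphocyte call ended without estrus-3 (adjusted p = 0.0660), the library with the highest Hrh2 level and the highest lymphocyte score, and the adipocyte call held in 20 of 20 fits that left out a library.

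**Figure D3:**
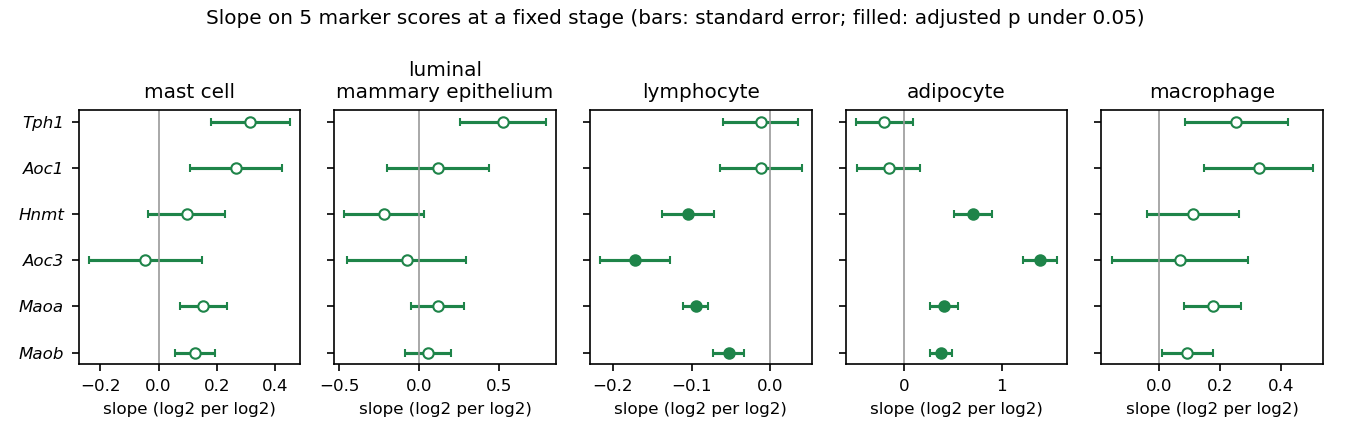
Slope of log2(FPKM + 1) of the 6 members that passed the filter (rows) on 5 marker scores (panels, horizontal axes in log2 per log2), with stage in the model, bars for the standard error and filled points for a limma adjusted p under 0.05. Aoc3, Hnmt, Maoa and Maob have filled points for the lymphocyte and adipocyte scores only, and Aoc1 and Tph1 have none.

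The marker levels that stood beside the stage patterns were as follows. The 9 mast cell markers summed to 9.14 to 147.7 FPKM in proestrus libraries, 40.4 to 182.7 FPKM in estrus libraries, 28.6 to 116.5 FPKM in metestrus libraries and 44.7 to 110.4 FPKM in diestrus libraries. Of the 7 tested, 0 were called in any pair, with a median log2 difference from proestrus of 0.80 (estrus), 1.27 (metestrus) and 1.33 (diestrus). The mean of Kit, 1 of the 7, was instead highest at proestrus, at 7.13 FPKM against 5.99 (estrus), 5.62 (metestrus) and 5.45 FPKM (diestrus). Kit was at 5.02 FPKM or more in each proestrus library, and so made up most of the lowest sum, 9.14 FPKM. Tpsab1 and Ms4a2 were each at 0 in at least 1 proestrus library and above 0 in all libraries of the other stages. The basophil marker Mcpt8 did not exceed 0.0455 FPKM. The 8 luminal markers summed to 428.5 to 675.8 FPKM in proestrus libraries and 372.0 to 456.9 FPKM in estrus libraries. Their sums were 212.9 to 624.3 FPKM in metestrus libraries and 271.8 to 467.8 FPKM in diestrus libraries, and 0 were called in any pair. Their median log2 difference from proestrus was -0.24 (estrus), -0.14 (metestrus) and -0.56 (diestrus), while that of the 8 lymphocyte markers was -1.23, -0.91 and -0.44 in the same order, with 0 called. With the luminal score in the model, estrus minus proestrus was -2.58 for Aoc1 and -1.09 for Tph1 on the log2(FPKM + 1) scale. With the mast cell score it was -2.75 for Aoc1 and -1.41 for Tph1, and with the lymphocyte score -2.63 and -1.26. What other cell types contributed to these values was not tested.

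Beyond the 9 genes, 74 other genes of amine and related metabolism were listed, of which 69 were in the table and 37 were tested. These lists were drawn up with earlier results of these data known, so the counts, calls and p-values given for them are not independent evidence of a stage pattern. In limma, 1 of the 37 fell at metestrus relative to proestrus (Ido1; 0.286% of all genes fell) and 1 fell at diestrus relative to metestrus (Arg2; 0.836% of all genes fell). In the other 4 pairs 0 were called. The adjusted test called 0.143% of all genes in estrus against proestrus, 0.222% in metestrus against estrus, 0.0143% in diestrus against proestrus and 0% in diestrus against estrus. At an unadjusted p under 0.05 there were 6 of the 37 in estrus against proestrus (6.69% of all genes), 4 in metestrus against estrus (8.13%), 4 in diestrus against metestrus (12.1%), 1 in diestrus against proestrus (3.96%), 7 in metestrus against proestrus (10.5%) and 1 in diestrus against estrus (6.08%). The median difference of the 37 was 0.03 for metestrus minus proestrus and -0.03 for diestrus minus metestrus on the log2 scale, against -0.01 and 0.00 for all genes tested.

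Ido1 encodes indoleamine 2,3-dioxygenase, which opens the indole ring of tryptophan and so draws on the same amino acid as Tph1. It lies on chromosome 8 at 24584136 to 24597009 on the minus strand of GRCm38. Its levels were 46.0, 44.8, 50.6, 40.1 and 43.2 FPKM at proestrus, 11.7, 14.9, 30.0, 17.3 and 21.7 FPKM at estrus, 13.9, 10.8, 4.85, 22.5 and 11.1 FPKM at metestrus, and 12.9, 8.77, 18.1, 21.9 and 31.3 FPKM at diestrus. The 5 proestrus libraries lay above all 15 others. Taken pair by pair, 0.429% (estrus), 1.08% (metestrus) and 0.357% (diestrus) of the genes tested lay below proestrus without overlap. The share that did so in every pair was not counted. Metestrus minus proestrus was -1.89 (SE 0.33, limma adjusted p = 0.00724), with 12.6 ± 6.43 FPKM at metestrus against 44.9 ± 3.87 FPKM at proestrus (SD, n = 5 each). Leaving out each library in turn gave -2.12 to -1.61, with the call kept in 20 of 20. Estrus minus proestrus was -1.26 (adjusted p = 0.313) and diestrus minus proestrus -1.35 (adjusted p = 0.704), which did not pass. Among the 4 stages together the limma F test gave an adjusted p of 0.0292 (0.736% of all genes passed), which exceeded the threshold in 6 of the 20 fits without a library (up to 0.0820), those without proestrus-1, proestrus-3, proestrus-4, proestrus-5, metestrus-1 or metestrus-5, and with no filter on low values (0.0789).

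Arg2, the mitochondrial arginase that makes ornithine for polyamines, fell at diestrus relative to metestrus. Its levels at diestrus were 11.8, 9.93, 14.6, 16.5 and 19.1 FPKM, against 32.7, 50.6, 18.3, 50.3 and 24.5 FPKM at metestrus. These overlapped through diestrus-5 and metestrus-3. The difference was -1.17 (SE 0.27, limma adjusted p = 0.0438), and the call ended in 10 of the 20 fits that left out a library (adjusted p = 0.0183 to 0.141 over the 20), those without estrus-2, estrus-4, estrus-5, metestrus-1, metestrus-2, metestrus-4, metestrus-5, diestrus-1, diestrus-2 or diestrus-4. It also ended with an equal FPKM total, on the 10 libraries alone, with the luminal score in the model and with no filter (limma adjusted p = 0.0519 to 0.108). Arg2 overlaps Gm48780 and Vti1b on the other strand.

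**Figure D4:**
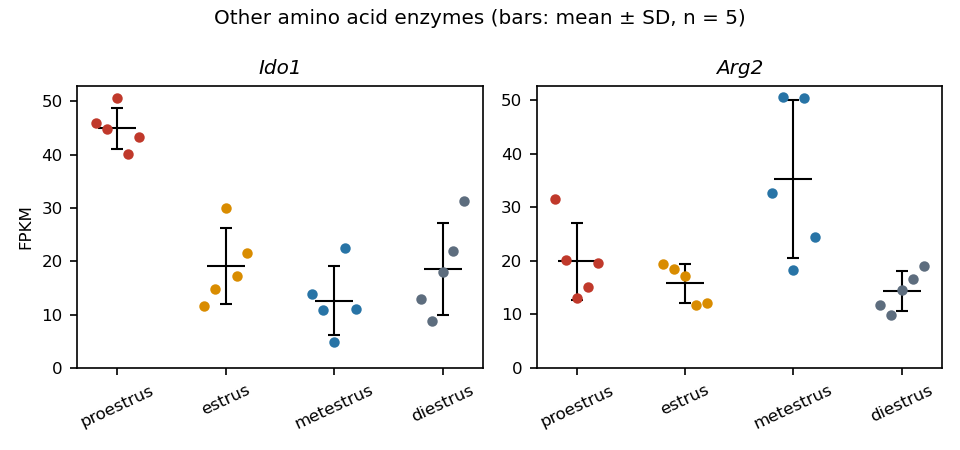
FPKM of Ido1 and Arg2 (vertical axes from 0) at the 4 stages, with a point for each library and bars for the mean ± SD of 5 mice. Ido1 lay at 40.1 to 50.6 FPKM at proestrus, above the 15 other libraries, and Arg2 reached 50.6 FPKM at metestrus.

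The other pathway lists held 0 called genes in any pair or in the F test. Of the remaining genes of histamine and serotonin only Slc22a3, an organic cation transporter that carries both amines, passed the filter, at 13.6 ± 1.39, 15.2 ± 4.41, 15.3 ± 2.81 and 13.8 ± 3.90 FPKM in the order of the cycle. Among 7 tested aldehyde dehydrogenases and reductases that take up the products of amine oxidation, Aldh2 had 126.1, 123.4, 129.6 and 131.8 FPKM at the 4 stages in turn, and Akr1a1 had 118.2, 115.0, 109.7 and 126.4 FPKM. Of 5 tested copper amine oxidases, Loxl1 had 13.1 ± 8.26, 18.6 ± 7.13, 12.3 ± 2.15 and 13.9 ± 3.85 FPKM and Lox had 8.26 ± 3.31, 16 ± 12.1, 16.1 ± 1.44 and 12.5 ± 4.86 FPKM, both enzymes that cross-link collagen and elastin.

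The genes whose levels followed Aoc1 most closely over the 20 libraries were Tmem86a (Pearson's r of log2(FPKM + 1) 0.95), Ptpn5 (0.93), Mmd2 (0.93), Dpep2 (0.91), Syn2 (0.90), Fam43a (0.87), Gas6 (0.87) and Tmed3 (0.86). Gas6, the ligand of the TAM receptor kinases, averaged 168.2, 73.3, 60.3 and 78.9 FPKM, from proestrus through the cycle to diestrus. In the same order Mmd2 averaged 10.3, 0.490, 1.32 and 3.26 FPKM. For Tph1 the closest genes were Rasef (0.83), Slc44a4 (0.82) and AC154502.3 (0.79), for Aoc3 Ehd2 (0.98), Aplp2 (0.95) and Tspan17 (0.94), and for Hnmt Iah1 (0.82), Akap7 (0.81) and Rab2a (0.80). For Maoa they were Cdkl2 (0.90), Ust (0.90) and Nckap1 (0.90), and for Maob Cd99l2 (0.87), Csad (0.86) and Mccc2 (0.86). These correlations were picked as the highest of 13987 genes over libraries that share the 4 stages, and are a description.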

How the data were processed

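RNA of inguinal fat from 20 mice, 5 per stage, was analysed from the FPKM per gene and library that the authors deposited. The study's methods name Skewer for trimming, STAR for alignment to GRCm38 and HTSeq for counting. The notes of the submitters add StringTie 1.3.1c (beside STAR 2.5.3a and FastQC 0.11.5) and list hg38 with GRCm38. The tool behind the FPKM and the annotation release were not given in the sources used here. Read counts were not used here, so counting error is unknown.

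Genes at 1 FPKM or more in at least 5 libraries were kept, and limma 3.58.1 under R 4.3.3 was run on log2(FPKM + 1) with a mean per stage, a variance trend and Benjamini-Hochberg adjustment at 0.05 over 13987 genes. The method was tested on simulated data. The members and all lists were chosen with earlier results of these data known. Named were all 9 members, called genes of each other list or otherwise genes with the highest mean among its members, and the genes with the highest correlation to each member. Not all of these are printed. Gene positions follow GENCODE M21 (GRCm38, counted from 1). The mice of each stage were separate animals. Alternatives were other pseudocounts, filters, scalings, weights and variance models, marker scores as covariates, a replicate block, fits on 10 libraries of 2 stages, proestrus-2 and metestrus-3 left out together, and each library left out in turn.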

Additional observations from a re-analysis of the deposited data

Results flagged for a closer look

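Among 64 groups of 5 libraries (9 members, 2 other pathway genes and 5 marker scores at 4 stages), 7 held a library far from the other 4. The cut used gives about 1 in 20 for normally distributed values. FPKM need not be so distributed, and the groups share libraries, so the 7 do not measure an excess. At estrus, Aoc1 was at 0.569 FPKM in estrus-1, with the others at 0.0931 to 0.109 FPKM. At proestrus, Maoa was at 13.0 FPKM in proestrus-2 (others 8.02 to 8.91 FPKM) and Hrh1 was at 0.729 FPKM in the same library (others 0.0249 to 0.207 FPKM). The lymphocyte score of proestrus-2 was 0.337, with the others at 3.73 to 4.77. The mast cell score was 3.20 in estrus-2 (others 1.86 to 2.07) and 1.59 in metestrus-3 (others 2.47 to 2.82). The luminal score was 4.06 in metestrus-3 (others 5.04 to 5.44). Scores are means of log2(FPKM + 1).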

How the results depend on the processing

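Of 1168 values of the members' stage differences under the alternatives, 1159 moved by less than the spread between mice and 9 moved further, all with a pseudocount of 0.1, which gave Aoc1 -4.62 for estrus minus proestrus, -4.62 for metestrus minus proestrus, -2.34 for diestrus minus proestrus, 2.28 for diestrus minus metestrus and 2.28 for diestrus minus estrus, and Tph1 -2.20 for estrus minus proestrus, -1.88 for diestrus minus proestrus, 1.36 for metestrus minus estrus and -1.04 for diestrus minus metestrus. Leaving out a library could hardly move a difference beyond that spread. Other filters or variance models, the replicate block and the fits on 10 libraries leave the difference as it was. The count of 1159 is therefore no measure of stability. Leaving out each library in turn gave Aoc1 -2.77 to -2.48 for estrus minus proestrus, -2.79 to -2.5 for metestrus minus proestrus, -1.87 to -1.47 for diestrus minus proestrus and 0.76 to 1.17 for diestrus minus metestrus, and Tph1 -1.47 to -1.12 for estrus minus proestrus and -1.35 to -1.01 for diestrus minus proestrus.

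The count of other pathway genes called in diestrus against metestrus (1, Arg2) was 0 with no filter, an equal FPKM total, the luminal score added or the 10 libraries alone, 2 with array weights, and 0 to 1 without a library. In metestrus against estrus (0) it was 1 with array weights. By the F test (1, Ido1) it was 0 with no filter, 2 with array weights or without proestrus-2 and metestrus-3, and 0 to 2 without a library. Members called on the lymphocyte score (4) and on the adipocyte score (4) were each 2 to 4 without a library. Of 860 values of the slopes of the 6 members under the alternatives, 29 changed their call, all losses and 22 of them of Maob on the lymphocyte score, which also ended with a pseudocount of 0.1, no filter, median-ratio size factors, no variance trend and without proestrus-2 and metestrus-3 together (limma adjusted p = 0.0538 to 0.0869). Leaving out libraries for Hdc, Hrh1 and Hrh2 was chosen after seeing the data. An equal FPKM total moved the median of all genes in estrus minus proestrus to 0.11 (log2). The causes were not tested.

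Replicate numbers belong to different mice, and 2 of 20 libraries deviated most like their own number. With a replicate block the count was 0 in diestrus against metestrus, 0 by the F test and 2 on the lymphocyte score (limma adjusted p = 0.0765 for Arg2, 0.0729 for Ido1 in the F test, 0.103 for Maob and 0.0829 for Hnmt), and the call of Maoa on the adipocyte score also ended (0.0750). Read depth could not be read from FPKM, so levels under 1 FPKM carry an unknown counting error.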
